A study of Mus musculus with 82 samples.

Results

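Skin of C57BL/6j mice that had received 3 Gy of whole-body X-rays was compared between day 4 (d4) and hour 2 (h2) after exposure. All arrays labelled 3Gy at these time points entered, 10 of the 82 arrays of the series, and they paired by mouse id into 5 mice (M011 to M015) of the 24 in the series. The animals were young adult males, irradiated under ketamine and xylazine anesthesia from a linear accelerator, and the shaved dorsal skin of the same animal was biopsied at both time points. The d4 biopsy was therefore taken from a mouse that had already been wounded once, and sham mice (0Gy, 4 pairs) were anesthetized, shaved and biopsied alike without exposure. Pairs of the other doses (3 mice at 1 Gy, 3 at 6 Gy and 4 at 20 Gy) were used as a background. The dose of 3 Gy was survived through the whole time course, whereas mice given 20 Gy were euthanized within the first week.

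Ionizing radiation breaks DNA, and the transcription factor p53 then induces genes that stop the cell cycle, such as Cdkn1a, or restrain p53 itself, such as Mdm2. Skin holds a dividing epidermis, a dermis of fibroblasts that secrete collagens and the proteins that process them, blood vessels, resident macrophages and mast cells, pigment cells and hair follicles, and a biopsy also carries the blood in its vessels. Transcripts of the circadian clock cycle through the day in most of these cells, and the clock factors CLOCK and BMAL1 act through the E-box sequence in promoters.

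Each biopsy (Cy5) was read against a common mouse reference RNA (Cy3) on a 2-colour array, so every level below is a log2 ratio of biopsy over reference, and every change is the d4 level minus the h2 level of the same mouse. Of 41174 probes, 24089 passed the filter on dim probes and were tested, and 13743 genes were represented by their brightest tested probe. The share of probes with a biopsy signal well above background ranged from 46.6% to 71.3% over the 10 arrays, and their number limits the precision (median SE of a change 0.17). A lower level in a biopsy can come from fewer cells of a type or from less RNA per cell, and these cannot be told apart.

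Some arrays stood apart from the rest before any gene was considered. M011 was hybridized on another scanner, with both of its arrays on 1 slide. In the other 4 mice h2 and d4 lay on different slides, so that slide and time cannot be told apart there. The d4 array of M011 had a mean correlation of 0.75 with the other d4 arrays, against 0.88 to 0.89 for the remaining 4, and the spread of its changes over probes (SD 0.71) exceeded those of the other pairs (0.38 to 0.54). M013 differed in another way, because its changes correlated with those of every other 3 Gy mouse at between -0.31 and -0.08. Over all 10 pairings of the 5 mice the median correlation of the changes across probes was 0.03, beside medians of 0.08 in sham, 0.08 at 1 Gy, 0.35 at 6 Gy and 0.58 at 20 Gy. These correlations describe arrays that share a reference and probe set. At 20 Gy all h2 arrays lay on 1 slide and all d4 arrays on another, so its pairs also share any slide difference. Several red cell, clock and glucocorticoid-induced genes of M013 stood in the opposite order from the other mice at h2 and d4. Whether the h2 and d4 biopsies of M013 were exchanged was not tested, and every mean over 5 mice holds them as labelled. The larger moves of list medians without M013 are given where the list is described. Among the sham mice M002 stood apart, with a median change of -6.31 over the growing follicle markers against -0.04, 0.02 and 0.20 in the other 3. It was also the only sham pair read on scanner 2, and the only one with h2 and d4 on different slides. Sham values below rest on all sham mice with a value unless said otherwise.

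**Figure D1:**
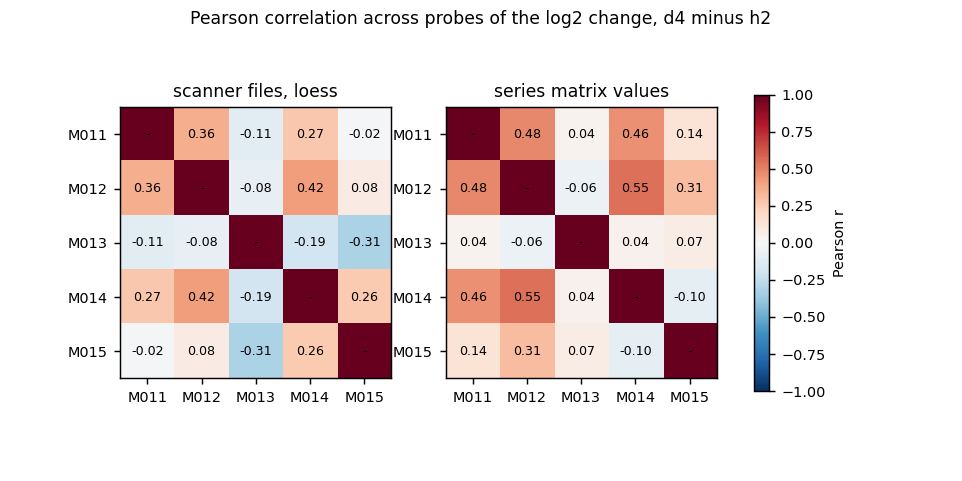
Pearson correlation, across the tested probes, of the log2 change (d4 minus h2) between each pair of 3 Gy mice, from the scanner files after loess (left) and from the series matrix values (right). The M013 row lies at or below 0 on the left (-0.31 to -0.08) and close to 0 on the right.

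No probe passed the test between d4 and h2 at 3 Gy in the paired fit over the 5 mice, which does not show that levels were alike. It called 0 probes higher and 0 lower (0% of 24089 in each direction) at an adjusted p under 0.05 with a change of at least 2-fold, the lowest adjusted p being 0.62 (limma). At an unadjusted p under 0.05 there were 606 probes higher (2.52%) and 1280 lower (5.31%), of which 10 and 85 also reached 2-fold. In genes these were 391 higher (2.85%) and 791 lower (5.76%), and the values that follow describe the genes at that end of the table, none of which passed the test. The same fit on the series matrix values also called 0 probes in either direction (lowest adjusted p 0.11), with 2060 higher and 2450 lower at an unadjusted p under 0.05. Other settings did give calls, 22 lower with the spread pooled over 19 mice and 289 higher and 1322 lower with the background model fitted over all spots, a fit that failed on several arrays.

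Of the genes measured in all 5 pairs, 4.63% were lower and 3.98% higher in every mouse (4.64% and 3.99% of such probes). The 12 genes of lowest p among those lower in all 5 pairs are given first. Clec3b, which encodes the secreted plasminogen-binding protein tetranectin, stood at 2.97, 4.31, 4.07, 3.62 and 4.80 at h2 in M011 to M015, and at 2.06, 3.38, 3.38, 2.38 and 3.40 at d4. Every mouse was lower at d4, but the ranges of the 2 time points overlapped, and the mean change was -1.03 ± 0.15 (SE, n = 5 pairs). In sham mice the median level was 2.58 at h2 and 2.05 at d4, with a mean change of -0.08 that held 0.79 in M002 and -0.37, 0.23 and -0.95 in the other 3.

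Cpz, a carboxypeptidase of the extracellular matrix, lay at 4.16, 4.65, 4.51, 4.23 and 4.24 at h2 against 3.38, 2.93, 3.81, 2.89 and 2.76 at d4. Its time points did not overlap, as held for 0.618% of the 11004 genes measured in all 5 pairs on the lower side and 0.527% on the higher side. The change was -1.21 ± 0.18 (SE, n = 5), beside -0.41 in sham, -0.95 at 6 Gy and -0.06 at 20 Gy. It was -0.65 in the series matrix values and -0.0777 with the ratio of the scanner software.

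Mertk, a receptor tyrosine kinase with which macrophages take up dying cells, went from 2.42, 1.66, 1.66, 1.72 and 1.98 at h2 to 0.94, 0.30, 1.31, 0.72 and 0.64 at d4, again without overlap (change -1.11 ± 0.19). Hdc, the enzyme that makes histamine in mast cells, was at 2.05, 2.38, 2.56, 2.50 and 2.37 at h2 against 0.41, 0.58, 1.88, 1.85 and 1.32 at d4 (change -1.16 ± 0.20). The smallest difference was that of M013 for Mertk and that of M014 for Hdc, and the sham changes were -0.17 for Mertk and 0.05 for Hdc. The sham value of Hdc rested on M002 (1.58), since the other 3 sham mice were at -0.69, -0.12 and -0.58.

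The other 8 of these 12 genes were Mageh1, Cyb5r3, Pcolce, Irx5, Sytl4, Col16a1, Cadm3 and Cyp2j9. Sytl4 was well above background on 4 arrays at h2 and on 1 at d4. It passed the filter through h2 only, so its d4 values and its lack of overlap are those of a dim probe. Pcolce encodes the enhancer that helps cut procollagen, Col16a1 a collagen chain bound to fibrils, and Irx5 a homeodomain transcription factor. The mean changes of the 12 ran from -1.21 to -0.61 with a median of -0.91, and the ranges of h2 and d4 did not overlap in 6 of them. In sham 8 of the 12 also had a negative mean change (median of the 12 in sham -0.07), where 47.95% of all probes were lower. Pcolce was as low in sham, at -0.66 over 2 pairs against -0.67 at 3 Gy, and was at -0.95 at 20 Gy, and Col16a1 was at -0.54 in sham against -0.79. All 12 were negative in the series matrix values too, with a median of -0.60. Since the genes were picked on these changes, the medians are descriptions only.

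The 12 genes of lowest p among those higher in all 5 pairs had smaller mean changes, from 0.49 to 0.96. Lce1l, a late cornified envelope protein of the outermost epidermis, was at 0.79, 1.24, 1.16, 0.59 and 1.34 at h2 against 2.00, 2.30, 1.27, 1.95 and 2.30 at d4. M013 hardly moved, and the change over the 5 mice was 0.94 ± 0.19. Gramd1c, a sterol-binding protein of the endoplasmic reticulum, was higher by 0.90 ± 0.19, and Aldh8a1, an aldehyde dehydrogenase, by 0.96 ± 0.24. The others were Bglap3, Tspan8, Gja10, Mdp1, Gabrp, Plk2, Dkkl1, Sit1 and Rhou. The time points did not overlap in 1 of the 12, Sit1, a membrane adaptor of lymphocytes. In sham, where 47.95% of all probes were lower, 8 of the 12 were also positive and Tspan8 was higher by 1.19.

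**Figure D2:**
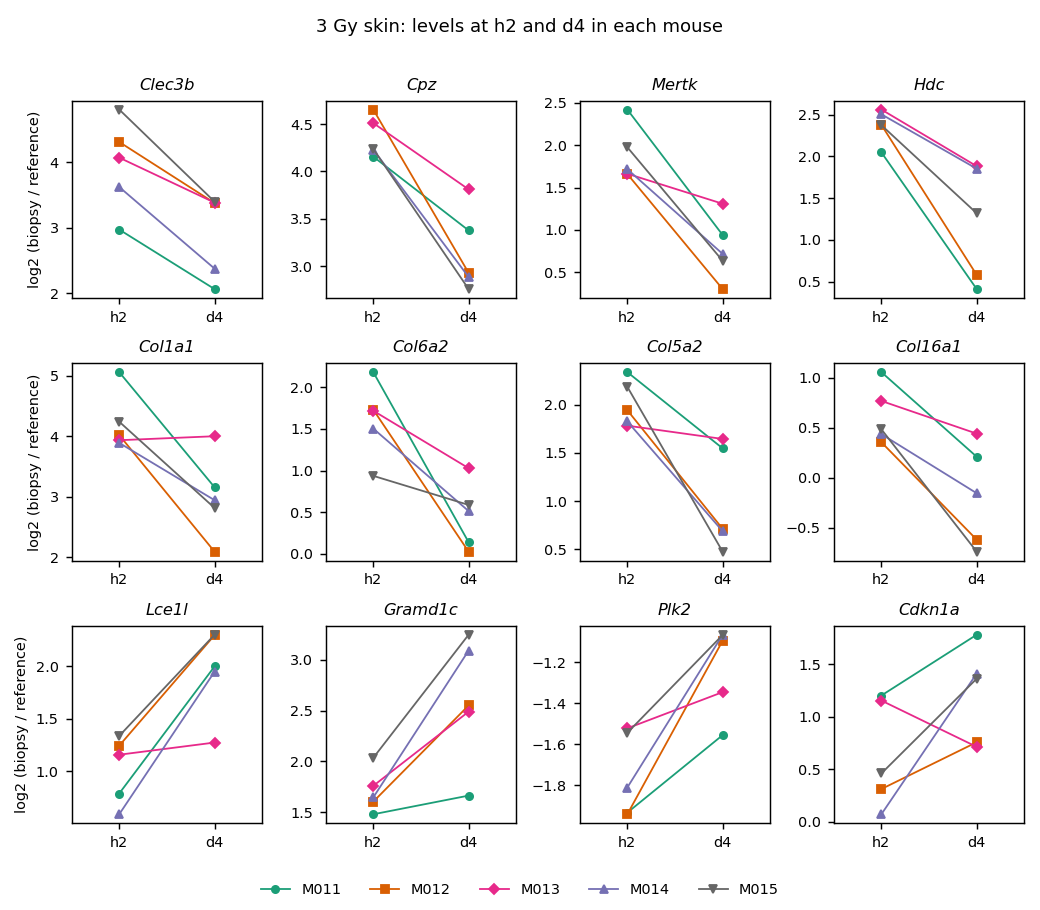
Levels (log2 of biopsy over reference, own scale in each panel) of 12 genes at h2 and d4, with 1 line per 3 Gy mouse. Clec3b, Cpz, Mertk and Hdc were lower at d4 in all 5 mice, Col1a1 was lower in 4 of 5 with M013 level, and Cdkn1a was higher in 4 of 5 with M013 lower.

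Collagens and other genes of the dermal matrix were mostly negative. The study named a set of collagens and related skin genes from these samples, so its direction is not independent evidence. Of the 17 genes measured, 9 were lower at an unadjusted p under 0.05 (5.76% of all genes) and 0 were higher, while none passed the adjusted test. The median change of the 17 was -0.65, beside -0.02 for all genes, and the medians within M011 to M015 were -0.39, -0.65, -0.16, -0.59 and -0.63. In sham the same genes had a median of -0.06, at 6 Gy -0.15 and at 20 Gy -0.28. The sham value rested on M002, whose median was 0.49 where the other 3 sham mice were at -0.26, -0.21 and -0.21.

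Col1a1, the main chain of type I collagen and of the dermis, stood at 5.06, 4.02, 3.94, 3.89 and 4.24 at h2 against 3.16, 2.09, 4.00, 2.94 and 2.81 at d4. It was lower in 4 mice and level in M013, with a change of -1.23 ± 0.29 (SE, n = 5), beside -0.26 in sham. The sham h2 levels were 4.74, 5.09 and 5.38 in M001, M004 and M005 and 1.87 in M002, and the sham changes were -0.38, -0.66 and -0.79 in the first 3 and 0.80 in M002. Col6a2, a chain of the beaded type VI microfibrils, was at 2.18, 1.73, 1.72, 1.50 and 0.94 at h2 against 0.14, 0.03, 1.03, 0.51 and 0.59 at d4. All 5 mice were lower and the change was -1.15 ± 0.25, beside -0.06 in sham, where M002 was at 1.81 and the other 3 between -0.98 and -0.46. Col5a2, a type V chain that regulates the diameter of collagen fibrils, had a change of -1.00 ± 0.22 and was lower in all 5 mice as well.

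The remaining genes of the 9 were Col15a1 (-0.85), Col16a1 (-0.79), Col6a1 (-0.73, 4 pairs), Col3a1 (-0.68), Lamb1 (-0.65) and Col5a1 (-0.63, 4 pairs). Lamb1 encodes a laminin chain of basement membranes. Col2a1 had a change of -0.77 ± 0.39, Col18a1 of -0.32, Col5a3 of -0.19, Col7a1 of -0.04 and Col4a4 of 0.24. The epidermal genes of that set did not share the negative sign throughout, with Calm4 at 0.30, the kallikrein Klk8 at 0.29 and Klk7 at -0.02, where M015 alone had a large negative value of -1.42.

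Fibroblast markers had the same sign as the collagens. All 13 measured markers had a negative change, as had 7214 of the 13743 genes tested, 7 of the 13 at an unadjusted p under 0.05 (5.76% of all genes), and their median was -0.54 against -0.12 in sham and -0.20 in the series matrix values. In sham M002 had a fibroblast median of 1.08 and the other 3 mice -0.30, -0.13 and -0.49. Postn, which encodes periostin, a matrix protein of remodelling tissue, had the largest difference, from 5.16, 4.30, 5.53 and 4.23 at h2 to 3.78, 2.99, 2.71 and 3.33 at d4 in M011, M012, M014 and M015. The h2 spot of M013 carried an outlier flag and was left out, so that the change of -1.60 ± 0.31 rests on 4 pairs. Dcn, a small proteoglycan that binds collagen fibrils, differed by -1.12 ± 0.31 and Sparc, a collagen chaperone, by -0.95 ± 0.39. Pdgfrb (-0.67), Thy1 (-0.64) and Dpt (-0.54) lay between these and the median. Whether fewer fibroblasts in the biopsies had a part in the collagen values was not tested.

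Vessel and pigment cell markers were also mostly negative, but not alike in all mice. Of 11 endothelial markers all were negative, 5 at an unadjusted p under 0.05 (5.76% of all genes), with a median of -0.55 where sham had 0.45 (1.42 in M002, -0.03 to 0.11 in the other 3). It was -0.33 in the series matrix values and -0.22 with the ratio of the scanner software. The medians were -0.61, -1.03, -0.24 and -1.13 in M011 to M014 and 0.25 in M015. Tie1 (-0.80), Vwf (-0.71), Cdh5 (-0.69), Kdr (-0.62) and Emcn (-0.55, 4 pairs) were the 5, Vwf being the clotting factor stored in endothelium, Kdr the main VEGF receptor and Cdh5 the cadherin of vessel junctions. Cldn5, the brightest of the group, stood at -0.05 ± 0.23.

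All 5 measured melanocyte genes were negative, 4 at an unadjusted p under 0.05 (5.76% of all genes), with a median of -1.00. The medians of single mice ranged from -2.73 in M014 and -1.11 in M011 to between -0.41 and -0.14 in the other three, so 2 mice carried the group, and without M014 the median was -0.56. Dct, the dopachrome tautomerase of melanin synthesis, was at 6.08, 4.69, 5.88, 6.93 and 5.29 at h2 against 4.97, 4.95, 5.18, 3.35 and 4.52 at d4. M012 was not lower, and the change was -1.18 ± 0.47. Pmel (-1.03), Tyrp1 (-1.00) and the lineage factor Mitf (-0.55) were alike in sign. Sham had a melanocyte median of -0.37, with -1.18 in M002 and -0.17, -0.32 and -0.07 in the other 3 mice, and 6 Gy of -0.84. Pigment genes follow the hair cycle, and the 11 measured markers of growing follicles had a median of -0.12 at 3 Gy (-0.57 in the series matrix values and -0.55 with the ratio of the scanner software) and of -1.68 in sham, where M002 alone was far from 0.

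Markers of monocytes and macrophages had negative medians in M012, M014 and M015 but not in M011 and M013. The 15 monocyte and macrophage markers had a median of -0.43 (-0.13 in the series matrix values), with 3 lower at an unadjusted p under 0.05 (5.76% of all genes), and the medians by mouse were 0.37, -0.85, 0.27, -1.14 and -0.89 (-0.23 without M014 and -0.28 without M012). The 3 were Ccr2 (-1.25 ± 0.46), the receptor that brings monocytes into tissue, Mrc1 (-0.74 ± 0.29), the mannose receptor of resident macrophages, and C1qa (-0.68 ± 0.21), a complement subunit made by macrophages. Lyz1 (-0.45), Lyz2 (-0.38) and Ly6c2 (0.17), the brightest of the list, did not reach that level, and Lyz1 and Lyz2 are near-identical copies whose probes may read both. The sham median of this list was 0.10, with 0.96 in M002 and -0.25, 0.10 and -0.83 in M001, M004 and M005. Mast cell markers had a median of -0.42 over 8 genes (-0.0847 in the series matrix values), beside 0.09 in sham, where M002 was at 1.28 and the other 3 mice at -0.35, 0.09 and -0.53. By mouse it was -1.03 in M014, -0.77 in M015 and between -0.08 and 0.16 in the other three. Without M013 the mast cell median was -0.66, and without M014 it was -0.20.

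Genes of red cells set M013 apart from the other 4 mice. Hbb-bt, an adult beta globin, was at 6.48, 8.08, 7.39 and 8.12 at h2 in M011, M012, M014 and M015 and at 3.42, 2.35, 3.08 and 2.63 at d4. In M013 it was at 2.20 at h2 against 6.79 at d4, the opposite order. The change over all 5 mice was -2.80 ± 1.34 with an adjusted p of 0.62 in the limma fit. Sham mice lay between 6.67 and 7.25 at h2 and between 5.67 and 7.28 at d4, so the low levels of the 3 Gy arrays lay under every sham array. The changes at other doses were -4.97 at 6 Gy and -2.80 at 20 Gy. Beta globin genes are near-identical copies and the probes may read more than one of them.

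Alas2, the first enzyme of heme synthesis in red cell precursors, had the same layout, at 1.77, 4.19, 2.91 and 2.77 at h2 and 0.14, 0.37, 0.44 and 0.16 at d4 in the 4 mice, and at 0.15 and 2.43 in M013. It was lower at d4 in all 4 sham mice too, with changes of -0.75, -0.88, -0.82 and -0.0394, and the erythroid median of sham was -0.62 beside -0.35 at 3 Gy. The order of these medians rested on single mice, since that of 3 Gy was -0.73 without M011, -0.17 without M012 and -0.22 without M014. Defb8, a defensin, was at 5.95, 5.40, 6.15 and 6.29 at h2 against 2.89, 0.61, 0.68 and 1.20 at d4 in the same 4 mice, and at 1.07 and 5.51 in M013. The erythroid marker Bpgm differed less, with a change of -0.16 (4 pairs), and the erythroid median of M013 was 2.28 where those of the other mice were between -0.91 and -0.28. Both M013 arrays were kept under their labels, and an exchange of its 2 biopsies was not tested.

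Clock genes followed the same layout over mice. Of 17 clock genes measured, 16 had a negative mean change, 5 of them at an unadjusted p under 0.05 (5.76% of all genes), with a median of -0.74 beside -0.30 in sham, -0.64 at 1 Gy, -0.74 at 6 Gy and -0.24 at 20 Gy. Within the mice the medians were -1.55, -0.92, 0.77, -1.09 and -0.70, M013 alone being positive, and without M013 the median was -1.12. In sham M002 had a clock median of 0.58 and the other 3 mice -0.51, -0.45 and -0.73. The time of day of the biopsies is not given in the sources used here.

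Dbp, a clock-driven transcription factor that peaks once a day, was at 1.50, 1.26, 1.31 and 1.12 at h2 against -0.86, 0.07, -0.58 and -0.64 at d4 in M011, M012, M014 and M015, and at -0.13 and 0.88 in M013. With M013 included the change was -1.24 ± 0.43, beside -1.07 in sham, where M002 was at 0.61 and the other 3 mice, at -1.37, -1.94 and -1.56, were all lower than the 3 Gy mean. Tef, a relative of Dbp, had a change of -0.95 ± 0.41 and Cry2, a repressor of the clock, of -0.86 ± 0.32 over 4 pairs. Per1 stood at 1.74, 1.63, 1.83 and 1.29 at h2 against -0.82, -0.17, 0.07 and 0.60 at d4 in the same 4 mice, and at 0.35 and 1.71 in M013 (change -1.09 ± 0.49). Hlf, the third member of that family, was at 0.90 at h2 and 3.06 at d4 in M013, whereas the other mice went from between 2.38 and 3.02 to between 0.86 and 1.38. Per3 (-0.59), Per2 (-0.86, beside -1.52 in sham) and Ciart (-0.74) were of the same sign. The brightest probe of Nr1d1 was at -0.84 and 2 other probes at 0.16 and 0.25, and Nfil3, a repressor of opposite phase, was at -0.07.

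Promoters of 4 clock genes are shown because the E-box, cacgtg, is the letter sequence bound by CLOCK and BMAL1. Windows of 300 bases around the RefSeq start site (GRCm38.p6) were searched for cacgtg, which reads the same on both strands, and for the D-box ttatgtaa on both strands, the site of Dbp, Tef and Hlf. Of the 17 clock genes measured, 14 had a window. The E-box was found in those of Per1, Tef, Ciart and Bhlhe41, 4 genes, and in 7.15% of all 32851 windows, and the D-box in that of Per3 and in 0.938% of all windows. A match is a description of these letters and the windows of Dbp and Hlf held neither motif. The capitals mark the E-boxes of Ciart (chr3:95882179-95882478, minus strand), Per1 (chr11:69098699-69098998, plus strand) and Tef (chr15:81802423-81802722, plus strand), and the D-boxes of Per3 (chr4:151044616-151044915, minus strand).
Ciart: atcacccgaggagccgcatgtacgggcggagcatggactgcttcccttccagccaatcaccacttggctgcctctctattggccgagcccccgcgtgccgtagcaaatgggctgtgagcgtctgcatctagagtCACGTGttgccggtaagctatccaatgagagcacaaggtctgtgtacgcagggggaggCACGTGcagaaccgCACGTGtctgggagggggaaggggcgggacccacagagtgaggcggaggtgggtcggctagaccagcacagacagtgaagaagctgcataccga
Per1: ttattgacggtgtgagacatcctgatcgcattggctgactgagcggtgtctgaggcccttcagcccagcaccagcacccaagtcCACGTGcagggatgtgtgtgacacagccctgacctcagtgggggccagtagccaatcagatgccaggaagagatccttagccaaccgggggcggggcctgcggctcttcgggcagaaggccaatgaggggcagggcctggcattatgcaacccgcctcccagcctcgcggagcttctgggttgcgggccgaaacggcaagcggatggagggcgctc
Tef: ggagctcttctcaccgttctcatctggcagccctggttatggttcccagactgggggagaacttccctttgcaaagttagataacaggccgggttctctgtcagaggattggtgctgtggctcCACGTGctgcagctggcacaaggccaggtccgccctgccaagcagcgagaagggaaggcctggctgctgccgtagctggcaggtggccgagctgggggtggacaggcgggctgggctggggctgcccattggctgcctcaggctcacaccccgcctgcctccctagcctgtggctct
Per3: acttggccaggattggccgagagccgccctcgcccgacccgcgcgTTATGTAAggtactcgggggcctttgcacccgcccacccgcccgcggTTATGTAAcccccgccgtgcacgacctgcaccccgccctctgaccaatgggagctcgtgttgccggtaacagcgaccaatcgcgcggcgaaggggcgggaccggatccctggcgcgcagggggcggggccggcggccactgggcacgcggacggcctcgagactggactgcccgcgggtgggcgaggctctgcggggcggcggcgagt

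Genes induced by glucocorticoids, hormones released under stress and by the daily rhythm, had the same order over mice. The 16 measured genes had a median of -0.33, and by mouse of -0.88, -0.95, 1.00, -0.91 and -0.32, beside -0.09 in sham. In sham M002 was at 1.01 and the other 3 mice at -0.25, -0.41 and -0.59. Without M013 the median was -0.69, and without M012 -0.20. Tsc22d3, the glucocorticoid-induced leucine zipper, was at 3.30, 3.25, 3.17 and 3.37 at h2 against 2.00, 2.41, 1.92 and 2.87 at d4 outside M013, and at 1.96 and 3.72 in M013. Klf9 had a change of -0.95 ± 0.46. Cdkn1c, a cell cycle inhibitor, was at the same level of 3.24 at both times in M013 and lower at d4 in the other mice (change over 5 mice -1.08 ± 0.25). The metallothioneins Mt1 (-0.29) and Mt2 (-0.15) and the stress gene Ddit4 (-0.60, 4 pairs) did not reach an unadjusted p under 0.05.

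**Figure D3:**
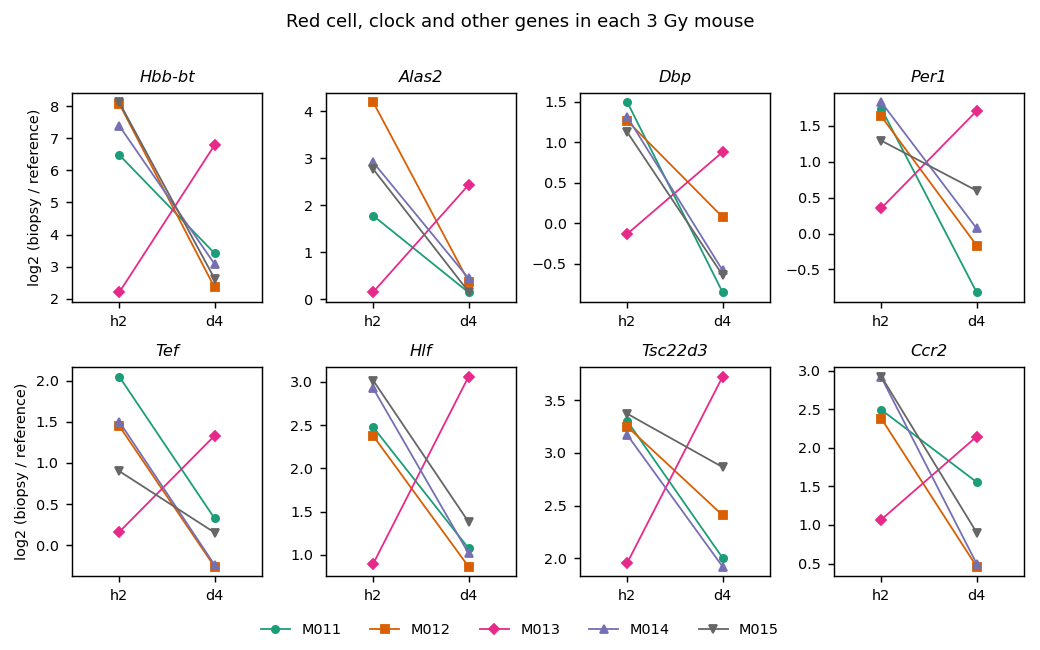
Levels (log2 of biopsy over reference, own scale in each panel) of red cell, clock, glucocorticoid-induced and monocyte genes at h2 and d4, with 1 line per 3 Gy mouse. In all 8 panels the M013 line goes up from h2 to d4 while the other 4 lines go down, as for Hbb-bt, at 2.20 and 6.79 in M013.

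Targets of p53 were mostly positive, by small amounts. Of 29 measured, 6 were higher at an unadjusted p under 0.05 (2.85% of all genes) and 0 lower. The median was 0.30 beside -0.02 for all genes and -0.00 in sham, and it was 0.58 at 6 Gy and 0.47 at 20 Gy. By mouse the medians were 0.29, 0.31, -0.19, 0.38 and 0.50. The sign relative to 0 depended on the normalization. With centring of each array on its median in place of loess the p53 median was -0.16, with the median of all probes at -0.29. With the background model fitted over all spots the p53 median was -0.00032, with the median of all probes at -0.07. Under both settings the p53 median lay above that of all probes.

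Cdkn1a, the p53-induced inhibitor of cell cycle kinases, was at 1.20, 0.31, 1.15, 0.07 and 0.46 at h2 against 1.78, 0.76, 0.71, 1.41 and 1.36 at d4. It was higher in 4 mice and lower in M013, with a change of 0.57 ± 0.24, beside -0.16 in sham, 1.45 at 6 Gy and 1.73 at 20 Gy. Plk2, a polo-like kinase induced by p53, was higher in all 5 mice, by 0.52 ± 0.15. Sesn2 (0.59, 4 pairs), Plk3 (0.57), Mdm2 (0.47, 4 pairs) and Ei24 (0.39) completed the 6. The target with the largest mean change, Ddit4l, a brake on mTOR signalling, was at 0.80, below its sham change of 1.70, where levels of 3.29 to 3.98 at h2 and 4.72 to 7.00 at d4 did not overlap. Phlda3 (0.03) and Perp (0.02, 4 pairs), both bright on these arrays, lay at the level of all genes.

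Several groups tied to cell division, repair and epidermis had medians near that of all genes, often from mice of opposite sign. The medians were -0.04 for G1/S and replication genes (24 genes), 0.03 for G2/M genes (25), 0.02 for DNA repair (26), -0.06 for basal and 0.03 for differentiated epidermis (8 and 14), 0.10 for wound-associated keratinocyte genes (20) and -0.07 for heat shock genes (16). By mouse, the wound-associated genes ran from 1.21 in M014 to -0.65 in M015, the G2/M genes from 0.55 to -0.42 and the differentiated epidermis from 0.81 to -0.41 in the same 2 mice. Sham had medians of -0.42 for the wound-associated genes, where M002 was at -1.44, and of -0.36 for the G1/S genes. Immediate early genes had a median of -0.27 (19), which was -0.13 without M011, -0.15 without M012 and -0.52 in the series matrix values. The medians were -0.06 for lipid and sterol synthesis genes (19), -0.16 for adipocyte (11), 0.13 for muscle (13), -0.07 for sebaceous gland (7) and -0.22 for Schwann cell markers (8). Among blood and immune cells the medians were 0.09 for platelets (5), 0.04 for neutrophils (5), 0.10 for T cells (11), 0.02 for B cells (3) and -0.07 for dendritic and Langerhans cells (10). The dendritic median was -0.36 without M013, and the neutrophil median -0.36 without M011 and -0.37 without M014.

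Inflammatory genes had medians of 0.26 for cytokines and chemokines (16 genes, 3 higher and 1 lower at an unadjusted p under 0.05, beside 2.85% and 5.76% of all genes) and 0.14 for interferon-stimulated genes (19). The interferon medians ran from 0.80 in M014 and 0.71 in M012 to -1.12 in M013, while 6 Gy had 1.11. Without M013 the interferon median was 0.55 and that of cytokines and chemokines 0.46, and without M014 they were -0.02 and 0.04. Of the IL-6 and blood genes that the study picked from these samples, 10 were measured, with a median of -0.02, and 1 of them, the inhibitory receptor Pirb, was lower at an unadjusted p under 0.05 (-0.63, 4 pairs). The IL-6 receptor Il6ra was at -0.01 and its transcription factor Stat3 at -0.28. Among the rest, Pdgfrl was at -0.75, Hspb7 at -0.12, Il1rn at -0.04, Cebpb at -0.01, the heme-binding Hebp2 at 0.28, Slpi at 0.32 and Il1rl1 at 0.61 (4 pairs).

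**Figure D4:**
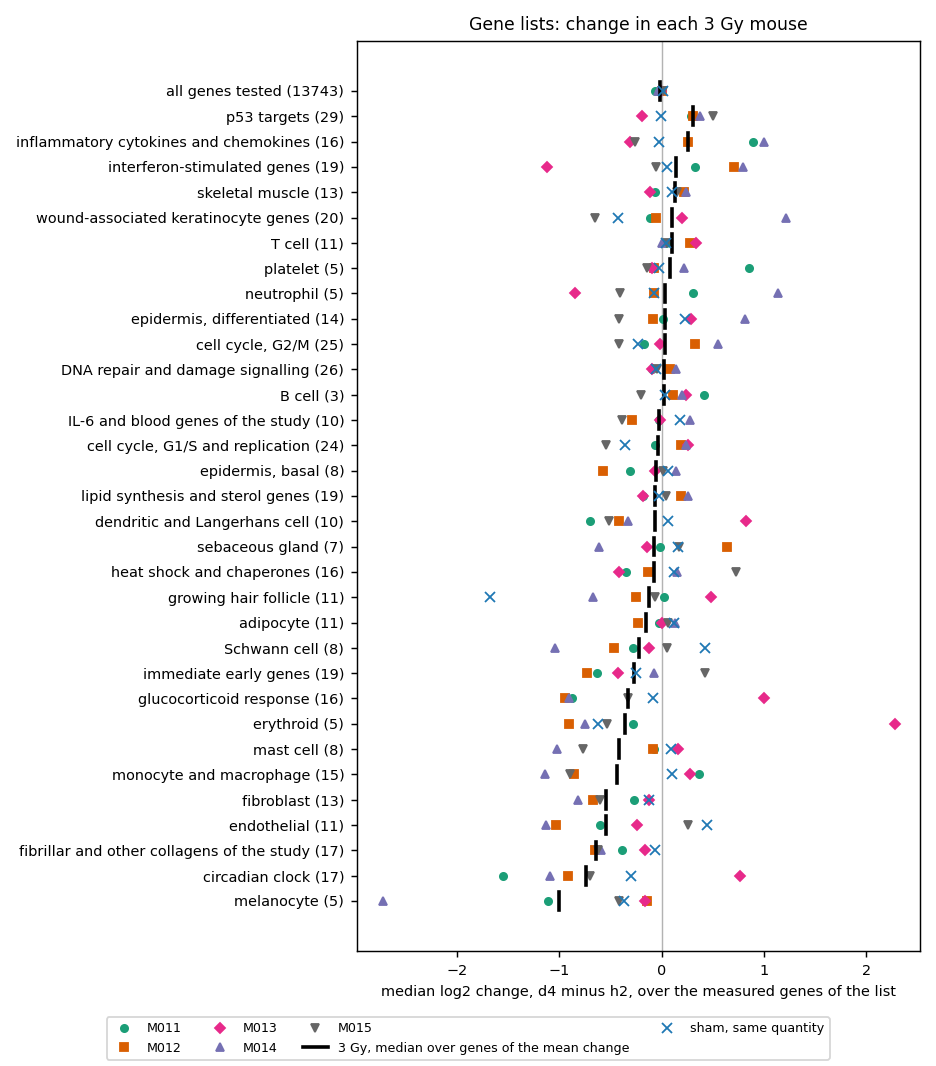
Median log2 change (d4 minus h2) over the measured genes of each list (number in brackets), with 1 symbol per 3 Gy mouse, a black bar for the median of the mean changes and a cross for sham. M013 lies on the opposite side from the other mice for the erythroid, clock and glucocorticoid lists, at 2.28, 0.77 and 1.00.

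When the spread was estimated over all 19 mice with both time points in place of the 5 mice alone, 0 probes were called higher and 22 lower at 3 Gy (0.0913% of the probes tested). These 22, of which 20 had a gene symbol, were not called in the paired fit, where all of them had an unadjusted p under 0.05. In the paired fit with the background model fitted over all spots 17 of them were called lower too, whereas the series matrix values gave 0 of them in the paired fit and 5 in the pooled one. Genes of matrix and adhesion proteins among them, listed after their values were seen, were Coch (-1.75), Postn (-1.60), Itga8 (-1.27), Col1a1 (-1.24), Cpz (-1.21), Spon1 (-1.11), Col5a2 (-1.00) and the protease gene Htra3 (-1.00). Coch encodes cochlin and Spon1 a secreted spondin, and Itga8 is the alpha subunit of an integrin that binds matrix. Dkk2 (-1.33), a modulator of Wnt signalling, and Adcyap1r1 (-1.63, 4 pairs), a neuropeptide receptor, were among them too. Ptprd (-1.45, 4 pairs), a receptor phosphatase, had changes of -1.15, -1.52, -1.61 and -1.53 in M011, M012, M014 and M015, the most even of the group. The others were Sirpb1b, Hdc, Ms4a4b, Mertk, Kdm6b, Tnk1, Ablim3, Fgd5 and Sesn1. Ms4a4b was well above background on 5 arrays at h2 and on 2 at d4, and so passed the filter through h2 only. Sesn1 is listed among the p53 targets, and its called probe (-1.04) was not the brightest one, which was at -0.39. For Adcyap1r1, Htra3, Itga8, Ms4a4b and Col1a1 the called probe was not the brightest either, and the brightest of Adcyap1r1 was at 0.31.

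Across doses, the median change of these 22 probes was -1.14 at 3 Gy, where they had been chosen, and -0.70 at 6 Gy (22 of 22 negative, beside 51.64% of all probes). It was -0.15 in sham (15 of 22, beside 47.95%), -0.05 at 1 Gy (12 of 22, beside 51.42%) and -0.07 at 20 Gy (14 of 22, beside 54.51%). Of the 18 measured in M013, 13 were lower there (50.19% of all probes), with a median of -0.16. These calls rested on single mice. Without M014 there were 0, without M012 3 lower, without M011 14 lower, without M015 44 lower and 12 higher, and without M013 246 lower (1.02%) and 55 higher (0.228%). All 22 were among the 246, and 5 of them among the 14.

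**Figure D5:**
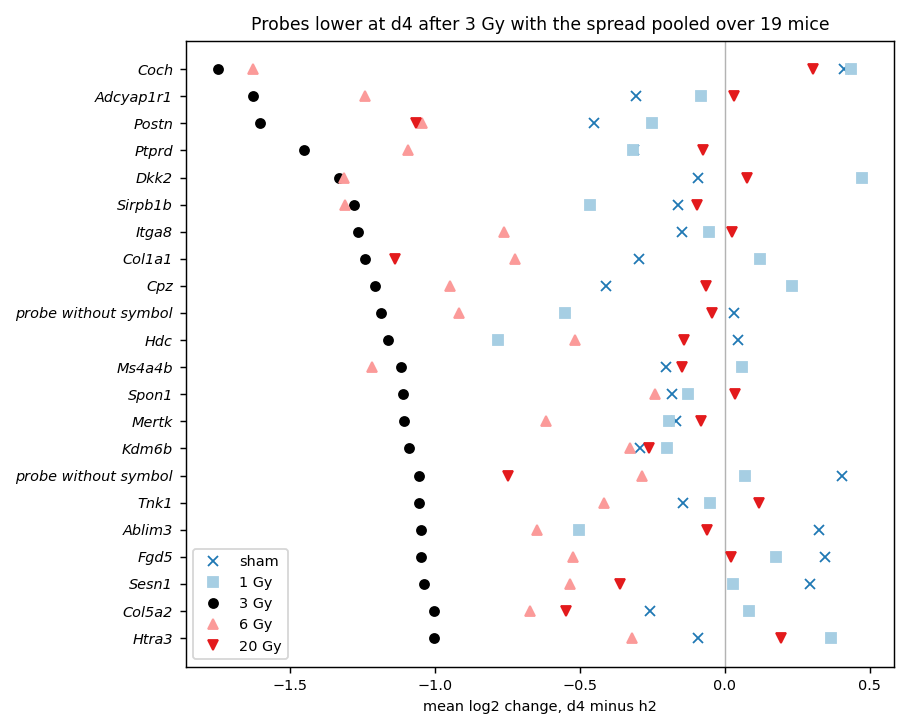
Mean log2 change (d4 minus h2) at each dose for the 22 probes lower at d4 after 3 Gy when the spread was pooled over 19 mice, ordered by the 3 Gy change. The 3 Gy points lie between -1.75 and -1.00 because the probes were selected there, and the 6 Gy points are all negative.

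Without M013, 163 genes were lower (1.19% of 13743) and 33 higher (0.24%) in that pooled fit. Of the 17 clock genes, 9 fell: Per1 by 1.70 ± 0.23, Dbp by 1.80 ± 0.29, Hlf by 1.61 ± 0.20, Per2 by 1.57 ± 0.30, Tef, Ciart, Cry2, Usp2 and Nr1d2. The sham changes were -0.36 for Per1, -1.07 for Dbp, -0.46 for Hlf (3 pairs) and -1.52 for Per2, which was lower in all 4 sham mice. These means hold M002, which was positive for Per1 (0.27), Dbp (0.61) and Hlf (0.42), while the other sham mice were between -0.99 and -0.20 for Per1, between -1.94 and -1.37 for Dbp and at -0.98 and -0.83 for Hlf. Hbb-bt fell by 4.65 ± 0.37 and Alas2 by 2.63 ± 0.35, 2 of 5 erythroid genes. Among the collagens of the study Col1a1, Col6a2, Col5a2 and Col2a1 fell, 4 of 17, and among fibroblast markers Postn, Sparc and Dcn, 3 of 13. The melanocyte genes Pmel and Tyrp1 (2 of 5) and the glucocorticoid-induced Cdkn1c, Klf9 and Mertk (3 of 16) fell as well. Counted by the brightest probe, 1 of 29 p53 targets rose, Ddit4l, by 1.23 ± 0.34 where sham had 1.70, and 2 other probes of Sesn1 fell (-1.34 and -1.14). M013 had the opposite sign for 190 of the 241 lower probes and for 41 of the 54 higher probes that it measured, while 50.19% of all probes were lower in M013. Calling probes without M013 favours those on which it differs, so these counts hold that selection and are descriptions only. The mouse was left out after its values had been seen, and the calls are those of 4 mice.

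The change at 3 Gy was next set against the change in sham mice, which holds what anesthesia, shaving, the first biopsy and time give without radiation. No probe differed (0 higher and 0 lower, 0% of 24089, lowest adjusted p 0.31, limma), with 992 higher and 1561 lower at an unadjusted p under 0.05. Of the sham pairs, 3 of 4 were read on scanner 1, and 4 of the 5 pairs at 3 Gy on scanner 2. The sham pairs on scanner 1 (M001, M004 and M005) had h2 and d4 on the same slide, as had M011. M002 had them on different slides, as had the 4 pairs at 3 Gy on scanner 2. Slide and dose therefore largely go together in this comparison. Without M013, 40 probes were lower (0.166%) and 8 higher (0.0332%) at 3 Gy relative to sham. Hbb-bt led these with 3 probes (-4.14, -3.96 and -3.81), followed by Defb8 (-3.48) and Txnip (-2.22), which encodes a thioredoxin inhibitor. Ccr2 (-1.85), Ablim3 (-1.69), Sirpb1b (-1.60), the endothelial factor Sox17 (-1.56), the adhesion receptor gene Adgrf5 (-2.08), Mertk (-1.13) and 2 probes of Sesn1 (-1.64 and -1.35) were on that side. Krt7, a simple epithelial keratin (1.55 and 1.67 on 2 probes), Procr, the protein C receptor (1.32), Ptgs2, the inducible cyclooxygenase (1.30), and Etv4 (1.15) were on the higher side. M013 was opposite in 34 of the 40 and in 7 of the 7 measured on the higher side, counts that leaving it out favours.

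In the fit over all doses, 0 probes were called within sham or 1 Gy, 21 higher (0.0872%) and 20 lower (0.083%) at 6 Gy, and 36 higher (0.149%) and 49 lower (0.203%) at 20 Gy. Against the change at 20 Gy, 24 probes differed on the higher side (0.0996%) and 5 on the lower side (0.0208%). All 29 were within 2-fold at 3 Gy itself, and 24 of them were lower at d4 after 20 Gy. The cornified envelope genes Lce1d, Lce1e and Lce1a2, of the outermost epidermis, had changes of 0.25, 0.43 and 0.13 at 3 Gy and of 2.42, 2.43 and 2.12 at 20 Gy, with differences of -2.17 ± 0.30, -2.00 ± 0.36 and -1.99 ± 0.39. The leukotriene receptor Ltb4r1 (-1.47 ± 0.25) and the sulfotransferase Chst12 (-1.19 ± 0.22) made up the 5. On the other side H2-Ab1, a class II antigen-presenting chain, was at -0.01 at 3 Gy and -1.32 at 20 Gy, Pcdh1 at 0.17 and -1.70, Rgs3 at 0.33 and -1.79, and Ss18l1 at 0.80 and -1.14. All pairs at 20 Gy were read on scanner 1, with all h2 arrays on 1 slide and all d4 arrays on another, so slide and time cannot be told apart there. The median Cy5 signal of these arrays was 29 to 33, against 55 to 104 in the 3 Gy arrays. The counts moved with the normalization and with single mice, to 81 higher and 75 lower without M013. The series matrix values gave 0 in either direction for this comparison.

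The series matrix values, which the study made from the same arrays, were compared with the scanner files probe by probe. Within each array at 3 Gy the 2 sets of log ratios correlated at 0.92 to 0.98. In the h2 and d4 arrays at 20 Gy they correlated at 0.65 to 0.74. The mean changes correlated at 0.81 across the 24089 probes and had the same sign in 79.97% of them, and 1034 probes had an unadjusted p under 0.05 in the same direction in both. In the pooled fit over 19 mice the series matrix values called 29 probes higher (0.12%) and 40 lower (0.166%), 5 of the lower ones shared with the 22.

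M011 had large changes at most of the higher calls of the matrix, but whether the calls hold without it was not tested. In 26 of the 29 the change of M011 in the scanner files was over 2, with a median of 3.31 where the mean of the other 4 mice had a median of 0.28. Dyrk1b, a protein kinase gene, was the plainest case, at 0.93, 0.76, 0.60, 0.84 and 0.80 at h2 against 4.74, 0.88, 0.93, 0.82 and 0.81 at d4. Cyth4, a guanine exchange factor of blood cells, was at -1.04 and 2.88 in M011 and differed by between -0.42 and 0.35 in the other 4 mice. Both genes were higher at d4 in all 4 sham mice, Dyrk1b by 0.62 to 1.70 and Cyth4 by 0.31 to 1.49. Of the 40 lower calls, M013 was opposite in 28, and in 20 the change of M011 was over 2 in size (median -1.98 over the 40, against -0.93 for the mean of the other 4 mice). Collagens had a median of -0.49 in the matrix values, melanocyte genes of -0.88, clock genes of -0.79 and p53 targets of 0.24, beside -0.65, -1.00, -0.74 and 0.30 from the scanner files.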

How the data were processed

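Each 3 Gy biopsy was labelled with Cy5 and hybridized with a universal mouse reference in Cy3 on a 44K whole mouse genome array, with no dye swap. Per the labels, spot intensity was extracted by the authors with Agilent Feature Extraction 11.0.1.1. The deposited scanner files gave median signal and background intensity (mean signals were not used), and the deposited series matrix held the authors' log2 ratios, which lay near a median of 0 on every array and whose exact centring is not given in the sources used here. The deposited files also held the scanner software's log10 ratio, converted to log2 for an alternative.

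Control spots (1639 of 45018) were left out of the loess, and spots with an outlier flag (3.52%) were set to missing. Background correction used normexp (offset 50), whose parameters were fitted on spots without an outlier flag, because a few spots of extreme local background made the fit over all spots fail on several arrays, shrinking the SD of the 3 Gy d4 log ratios to as little as 0.34. This was decided from the fitted parameters after seeing the arrays, and the fit over all spots is kept as an alternative. Ratios were normalized by loess within arrays, and probes well above background on at least 3 of 5 arrays of a group with at least 4 measured pairs were tested. Symbols were looked up in RefSeq by the accession given for each probe (27553 of 41174 probes), and a gene is its brightest tested probe.

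The paired comparison was fitted with limma 3.58.1 (lmFit and eBayes, R 4.3.3) with mouse as the block, and a probe was called at a Benjamini-Hochberg adjusted p under 0.05 over all probes tested and a fold of at least 2. The mouse ids in the labels give the pairing. Fits over 19 mice gave the contrasts with sham and 20 Gy. Arrays are separate biopsies, and each mouse counts as 1 replicate. Errors are SE of the paired fit, or of the fit over 19 mice (18 without M013) for the values taken from it.

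Genes were named as the 12 rises and 12 falls of lowest unadjusted p with 1 sign in all 5 pairs (since none passed), the brightest members of the lists, and the genes named by the study, and further genes were chosen after their values were seen. The genes and the 32 lists were chosen with earlier results of these data known. The fits were tested on simulated data.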

Additional observations from a re-analysis of the deposited data

Results flagged for a closer look

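In groups of 5 mice, a value was marked when the gap of the highest or lowest mouse to its neighbour took up an unusually large share of the whole range (Dixon's ratio), which chance gives in about 1 of 20 groups. The rule was run over every named gene, all lists and several array measures, so some marks would arise by chance. M013 was the distant mouse for the changes of Hlf (ratio 0.875), Tnk1 (0.842), Defb8 (0.757), Hbb-bt (0.742), Tsc22d3 (0.742) and Ciart (0.712), where its changes were 2.17, 0.11, 4.45, 4.59, 1.77 and 1.28. It was also distant for the medians of the erythroid list (0.803) and of the dendritic and Langerhans cell list (0.76). M011 was distant for Dyrk1b (0.907) and Cyth4 (0.822), with changes of 3.81 and 3.92, and for the mean correlation of its d4 array with the other d4 arrays (0.889) and of its h2 array with the other h2 arrays (0.756). M015 was distant for Nfil3 (0.781), Klk7 (0.78) and Hebp2 (0.728), with changes of 1.19, -1.42 and -0.70, and M014 for Dkkl1 (0.723), with a change of 1.40. The causes were not tested. The change at 3 Gy differed from that at 20 Gy in 29 probes by the test of the difference itself.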

How the results depend on the processing

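In the paired comparison 0 probes were called under 10 alternatives and without any single mouse (range 0 to 0), including the fit without the replicate block (0 higher and 0 lower, 1644 probes at an unadjusted p under 0.05), centring on the median, the scanner software's ratio, the series matrix, slide as a random block, both filters on dim probes, no fold threshold and all 82 arrays. Aquantile leaves ratios as they are. Pooling the spread over 19 mice gave 22 lower, then without 1 mouse each 0, 3, 14, 44 or 246 lower and 0, 12 or 55 higher, and with the series matrix (chosen after seeing the data, as were these left-out mice) 29 higher and 40 lower. Fitting normexp over all spots (also chosen after seeing the data) gave 289 higher and 1322 lower, against sham 446 and 1290, and against 20 Gy 40 and 160. Against sham, median centring gave 3 lower, a d4 term for scanner 2 gave 2 higher and 3 lower, and left-out mice gave 0 to 8 higher and 0 to 40 lower. Against 20 Gy (24 and 5) the counts were 11 and 2 without the replicate block, 2 and 98 with median centring, 115 and 285 with the software's ratio, 0 and 0 with the series matrix, 80 and 11 with the scanner term, and 9 to 81 higher and 1 to 75 lower over left-out mice.

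Some named genes turned sign. With normexp over all spots these were Aldh8a1 (-0.0038), Bglap3 (-0.34), Dkkl1 (-0.26), Gabrp (-0.75), Gja10 (-0.0911), Gramd1c (-0.78), Lce1l (-0.43), Plk3 (-0.0376), Rhou (-0.0947), Ss18l1 (-0.0787) and Tspan8 (-0.66). With the software's ratio C1qa (0.0556) and Cdh5 (0.26), with median centring Ei24 (-0.15), Mdp1 (-0.0153) and Sesn2 (-0.11), with the series matrix Plk3 (-0.0703), and on other probes Ablim3 (0.0693), Nr1d1 (0.16 and 0.25) and Thy1 (0.0732) did so. Median centring put the median of all probes at -0.29, and Ei24, Mdp1 and Sesn2 stayed above it. The causes were not tested. Of the other values of named genes, 1483 were unchanged in direction and call, 36 passed the test (all with normexp over all spots) and 36 moved by more than the spread between mice, as did 39 list medians (345 did not). With normexp over all spots the medians were 1.09 for G2/M genes, -1.13 for differentiated epidermis and -1.64 for monocytes and macrophages.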
